A study of Homo sapiens with 6 samples.

Results

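The transcription factor AP-1 is a pair of bZIP proteins, most often a Jun protein with a Fos protein, and 10 genes of this group were followed here in RKO cells, a line from a poorly differentiated human colon carcinoma. The genes were chosen by symbol: the Fos genes FOS, FOSB, FOSL1 and FOSL2, the Jun genes JUN, JUNB and JUND, and the related bZIP genes ATF3, BATF3 and MAFF. All 10 were among the 27980 gene symbols counted, and all 10 had enough reads to be tested. RNA was sequenced in 6 libraries. A hairpin RNA that targets TRIP6, delivered by lentivirus, was present in 3 of them (shTRIP6), and a scrambled hairpin delivered likewise in the other 3, whose genotype the labels give as WT (shControl). Puromycin selection (5 µg/ml) began in both groups 36 h post infection and lasted 2 to 3 weeks, so both are selected, infected populations and not parental cells, and the labels name 1 hairpin target with no second hairpin or rescue. The labels call the replicates biological, and give no separate cultures for them, so the p-values rest on the spread among these libraries alone.

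Jun proteins can pair with each other or with a Fos protein, whereas Fos proteins need a Jun partner to bind DNA. The pairs bind the sequence TGANTCA and, in some combinations, the related cyclic AMP response element, and they pass growth factor, stress and cytokine signals on to genes of invasion, proliferation and survival. FOS, FOSB, JUN, JUNB and ATF3 are classical immediate early genes, switched on within minutes of a stimulus, while FOSL1 is typically raised for longer under sustained ERK signalling, as in many carcinomas. TRIP6 is a LIM-domain adaptor of the zyxin family, and a shorter nuclear form of it has been described as a co-activator of AP-1. The comparison of shTRIP6 with shControl here asks how the mRNA supply of the AP-1 subunits differs when the adaptor is depleted.

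TRIP6 itself had 19.8, 19.4 and 19.5 CPM (counts scaled to library size, as parts per 1e+06) in shTRIP6 and 73.9, 86.5 and 80.6 CPM in shControl, so the label of every library held. Libraries held 31096598 to 32089298 counts in shTRIP6 and 29605764 to 30949334 counts in shControl. Replicate 1 of shControl differed more from the other 2 controls (chi-square per degree of freedom of 10.7 and 11.7) than these did from each other (4.81), and values without it are given where they matter. Of the colon epithelium markers, KRT8 and KRT18 stood at 1720 ± 72.9 and 885 ± 34.4 CPM in shTRIP6 and at 1804 ± 99.5 and 871 ± 54.0 CPM in shControl (SD, n = 3 each). The other 9 of 11, which include CDX2, VIL1, EPCAM and CDH1, averaged under 1 CPM. Markers of fibroblasts, leukocytes and endothelium moved both ways. Of 9 tested members, 3 were called higher and 4 lower (33.3% and 44.4%, beside 29.0% and 31.2% of all tested genes). The summed level of these markers was 254.6 to 263.6 CPM in shTRIP6 and 203 to 255 CPM in shControl, most of it CD68. COL1A1, the fibrillar collagen gene, stood at 2.38 ± 0.435 CPM in shTRIP6 and 5.16 ± 0.284 CPM in shControl, and PDGFRB at 13.9 ± 1.18 CPM in shTRIP6 and 6.89 ± 1.23 CPM in shControl. CD14 stood at 2.22 ± 0.540 CPM in shTRIP6 and 0.520 ± 0.189 CPM in shControl, and PTPRC, CD3E and MS4A1 were at or near 0 in both groups. DCN, POSTN and PECAM1 had no read in shTRIP6 and averaged 1.04, 1.22 and 1.65 CPM in shControl. The part of these differences in the results below was not tested.

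Of the 10 genes, 4 rose (FOSL1, JUN, BATF3 and MAFF) and 4 fell (FOSL2, JUNB, JUND and ATF3) in shTRIP6 by edgeR's quasi-likelihood test at a Benjamini-Hochberg adjusted p under 0.05, and FOS and FOSB did not pass. The same test called 60.1% of all 15473 genes tested, 29.0% higher and 31.2% lower in shTRIP6, so 8 calls among 10 genes stand against a high background. The members' changes spanned -2.30 to 1.01 on the log2 scale with a median of -0.34, beside a median of -0.00 over all genes tested. Changes of at least 2-fold among called members were those of BATF3, upward, and JUNB, JUND and ATF3, downward, where 14.9% of all tested genes were called at that size, 4.38% higher and 10.5% lower. The values of the groups did not overlap in 9 of 10 members, where 65.3% of tested genes show this (31.8% higher and 33.5% lower), and FOSL2 was the exception. Both groups are bulk RNA, in which fewer cells with a transcript and less transcript per cell cannot be told apart.

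**Figure D1:**
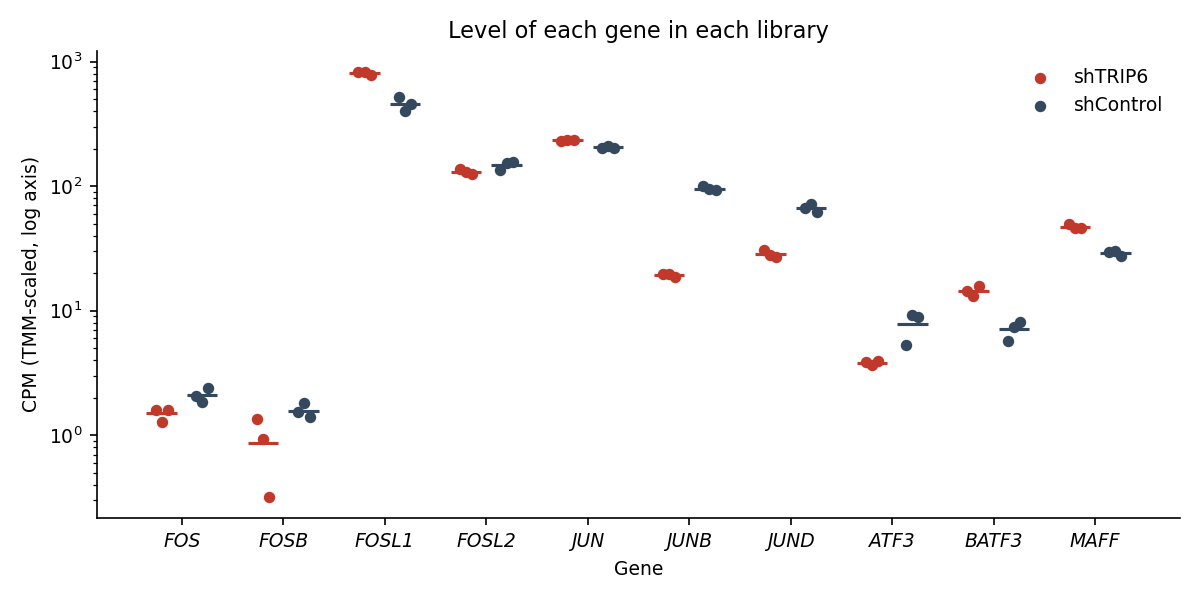
Level of each gene in CPM on a log axis, with 1 point per library, red for shTRIP6 and dark blue for shControl, and a bar at each group mean. FOSL1 is the most abundant of the 10 genes in both groups, JUNB has the widest gap, and FOSB in shTRIP6 has the widest spread, from 0.322 to 1.35 CPM.

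**Figure D2:**
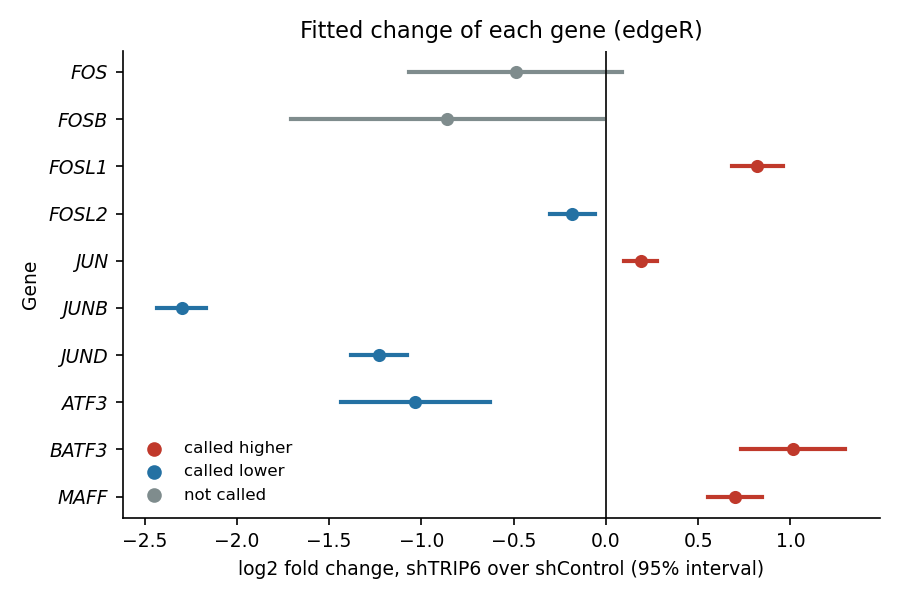
Fitted log2 fold change of each gene, shTRIP6 over shControl, with a 95% interval built from the SE. The intervals are not adjusted over genes, so that of FOSB leaves out 0 although FOSB was not called. Red marks genes called higher, blue genes called lower and grey genes that were not called, and the 4 rises lie between 0.19 and 1.01.

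Among the Fos genes, FOSL1 carried most of the mRNA, nearly all of it per kb of exon, and rose. FOSL2 fell slightly, and FOS and FOSB were close to the lower end of what was measured. FOSL1 encodes FRA-1, a Fos protein without the strong activation domain of FOS that is abundant in invasive carcinoma lines. The gene, which codes for protein, occupies bases 65892049 to 65900573 of chromosome 11 on the minus strand (GRCh38). Its level was 824, 820.1 and 785 CPM in shTRIP6 and 520.3, 400.1 and 454.5 CPM in shControl. Every shTRIP6 library was above every shControl library, and the spread was smaller in shTRIP6, at 2.68% of the mean against 13.1% in shControl. The fitted change was 0.82 ± 0.07 on the log2 scale, a 1.77-fold rise (SE, edgeR adjusted p = 2.98e-09), and it was 0.92 without replicate 1 of shControl. Per kb of exon, FOSL1 was above 99.4% of all tested genes with a known length in shTRIP6 and above 99.0% in shControl. Of its 4 nearest tested genes, FIBP lay at -0.28 on the log2 scale, and CCDC85B, C11orf68 and DRAP1 at 0.59, 0.41 and 0.33.

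FOSL2, which encodes FRA-2 and lies on chromosome 2 from 28392448 to 28417312, had 136, 130.3 and 125 CPM in shTRIP6 and 134, 155 and 155 CPM in shControl. The groups overlapped, because the highest shTRIP6 library stood just above replicate 1 of shControl. The fitted change was -0.18 ± 0.06 (edgeR adjusted p = 0.0115). The call was lost without replicate 3 of shTRIP6 (log2 fold change -0.14, adjusted p = 0.0858), replicate 2 of shControl (-0.15, 0.0608) or replicate 3 of shControl (-0.15, 0.0560) and with upper-quartile scaling (-0.13, 0.0522), in a range of adjusted p of 1.72e-05 to 0.0858 over its alternatives. The lowest of these came without replicate 1 of shControl, the control that overlaps shTRIP6, where the change was -0.25.

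FOS, the prototype of the family on chromosome 14 from 75278774 to 75282230, had 51, 40 and 50 reads in shTRIP6 and 61, 58 and 74 reads in shControl. Its levels were therefore 1.60, 1.28 and 1.61 CPM in shTRIP6 and 2.05, 1.86 and 2.39 CPM in shControl. Each shTRIP6 value lay below each shControl value, but the test did not pass (log2 fold change -0.49, 95% interval -1.07 to 0.09, edgeR adjusted p = 0.133). FOSB, on chromosome 19 from 45467995 to 45475179, had 43, 29 and 10 reads in shTRIP6 and 46, 56 and 43 reads in shControl. Its levels were 1.35, 0.927 and 0.322 CPM in shTRIP6 and 1.55, 1.798 and 1.39 CPM in shControl, and the groups did not overlap. The fitted change was -0.86 (95% interval -1.71 to -0.01, adjusted p = 0.0735), and without the library with 10 reads, replicate 3 of shTRIP6, it was -0.46 (adjusted p = 0.311). The call of FOSB was gained without replicate 1 of shTRIP6 (log2 fold change -1.32, adjusted p = 0.0244) and in limma-voom (-1.06, 0.0365). It was also gained with no filter on low counts (-0.85, 0.0475) and with the replicate number as a block (-0.98, 0.0483). The adjusted p ranged from 0.0244 to 0.311 over its alternatives. The intervals of both genes reach from more than 2-fold lower to near none, and the SD of FOSB was 59.7% of its mean in shTRIP6 and 13.0% in shControl.

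Taken per kb of exon, so that genes can be set beside each other, the 4 Fos genes together stood at 448 ± 12.3 CPM per kb in shTRIP6 and 264 ± 30.4 CPM per kb in shControl. FOSL1 made up 95.7%, 95.9% and 95.9% of this sum in shTRIP6 and 93.3%, 90.4% and 91.4% in shControl. FOSL2 made up 4.07% ± 0.0889 in shTRIP6 and 7.93% ± 1.45 in shControl. FOS had a share of 0.103% ± 0.0143 in shTRIP6 and 0.247% ± 0.0331 in shControl, and FOSB 0.0345% ± 0.0201 in shTRIP6 and 0.109% ± 0.0251 in shControl. All 4 shares separated the groups without overlap, and each gave p = 0.10 in an exact two-sided permutation test, the smallest p that 3 against 3 libraries allow (0.10 after adjustment over 7 shares). The shares sum to the whole within each library, so they are not independent results. A rise of FOSL1 alone lowers the shares of FOS, FOSB and FOSL2. The size of the share depends on the length correction: FOSL1's share differed by 4.08 percentage points between the groups per kb and by 10.98 points with no length correction. In CPM, FOSL2 weighs more, with means of 130 in shTRIP6 and 148 in shControl beside 810 and 458 for FOSL1.

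The Jun genes divided. JUNB and JUND fell, while JUN rose by a small amount, and the 3 are compared here beside their promoters, the sequence where control of their transcription begins. JUN is the strongest activator of the family and the usual partner of Fos proteins. JUNB is a weaker activator that in many settings opposes JUN in driving proliferation. JUND is usually made at a steady level and binds menin, the product of the MEN1 gene. The windows below run from 250 bases before to 50 bases after the start of each gene in RefSeq (GRCh38.p14), 5′ to 3′ on the strand of the gene, and capitals mark matches to TGACNTCA or its reverse complement, a motif that includes the cyclic AMP response element TGACGTCA. JUNB is at chr19:12791236-12791535 on the plus strand, JUND at chr19:18281573-18281872 on the minus strand and JUN at chr1:58783998-58784297 on the minus strand. Starts in RefSeq can differ from the gene spans given in the text, which are from GENCODE. The window of JUN lies wholly inside its span, as do those of FOSL2 and MAFF, which are searched further below.
JUNB: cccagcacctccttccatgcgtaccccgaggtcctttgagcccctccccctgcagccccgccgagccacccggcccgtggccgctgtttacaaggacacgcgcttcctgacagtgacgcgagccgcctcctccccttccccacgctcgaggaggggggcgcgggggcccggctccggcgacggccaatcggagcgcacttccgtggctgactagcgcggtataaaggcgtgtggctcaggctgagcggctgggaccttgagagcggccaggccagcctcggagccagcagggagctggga
JUND: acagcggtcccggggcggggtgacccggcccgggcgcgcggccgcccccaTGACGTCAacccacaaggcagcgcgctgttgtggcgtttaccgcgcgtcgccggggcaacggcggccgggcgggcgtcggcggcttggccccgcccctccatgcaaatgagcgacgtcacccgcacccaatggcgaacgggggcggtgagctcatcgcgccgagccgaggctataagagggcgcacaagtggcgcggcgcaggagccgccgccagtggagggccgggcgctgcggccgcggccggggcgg
JUN: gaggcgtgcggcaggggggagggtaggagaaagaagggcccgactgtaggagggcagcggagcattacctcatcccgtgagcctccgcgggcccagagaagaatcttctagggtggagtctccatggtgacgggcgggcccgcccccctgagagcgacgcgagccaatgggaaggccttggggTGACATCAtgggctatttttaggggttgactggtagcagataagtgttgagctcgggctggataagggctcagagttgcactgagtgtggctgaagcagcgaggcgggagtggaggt

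JUNB had 19.7, 19.9 and 18.6 CPM in shTRIP6 and 99.3, 94.0 and 93.0 CPM in shControl. The SD was 3.36% of the mean in shTRIP6 and 3.56% in shControl, and the groups were far apart. The fitted change was -2.30 ± 0.06 on the log2 scale, a level 4.92-fold lower (edgeR adjusted p = 3.52e-16), which left 20.3% of the shControl level. This was the largest change of the 10 genes, beside -2.04 ± 0.07 for TRIP6 itself. Over 14 alternatives the change of JUNB stayed between -2.32 and -2.25. JUNB occupies bases 12791496 to 12793315 of chromosome 19, plus strand, and is a gene of 1820 exon bases, which overlap an exon of HOOK2 on the other strand, so reads of the 2 genes may not be told apart. HOOK2 had counts equal to 33.5% of those of JUNB in shTRIP6 and 8.25% in shControl and did not pass the test (log2 fold change -0.28, edgeR adjusted p = 0.116). Among the 2 tested genes nearest to JUNB on either side, PRDX2, the peroxiredoxin gene that lies 3504 bases past the end of JUNB and was named after its values were seen, stood at 1.03 ± 0.265 CPM in shTRIP6 and 97.2 ± 1.17 CPM in shControl. The other 3, ASNA1, HOOK2 and RNASEH2A, lay between -0.28 and 0.25 on the log2 scale.

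JUND, on the same chromosome from 18279760 to 18281622, had 30.7, 27.9 and 27.2 CPM in shTRIP6 and 66.2, 72.3 and 62.4 CPM in shControl. Again no libraries overlapped. The change was -1.23 ± 0.07, 2.34-fold lower (edgeR adjusted p = 3.96e-11), between -1.28 and -1.17 over the alternatives. Of the 4 tested genes nearest to JUND, LSM4 and PGPEP1 lay at 0.15 and -0.10 on the log2 scale, PDE4C at 0.77 with under 1 CPM in each group, and IQCN stood at 0.0213 CPM in shTRIP6 and 1.78 CPM in shControl.

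JUN, on chromosome 1 from 58780788 to 58784327, had 232, 235 and 234 CPM in shTRIP6 and 204, 209 and 202 CPM in shControl. The libraries of each group were close together, with an SD of 0.645% of the mean in shTRIP6 and 1.74% in shControl. A rise of 0.19 ± 0.04, or 1.14-fold, passed the test (edgeR adjusted p = 0.000982). It stayed between 0.17 and 0.24 over the alternatives.

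Per kb of exon, the Jun genes together stood at 91.9 ± 1.00 CPM per kb in shTRIP6 and 146 ± 4.11 CPM per kb in shControl. JUN made up 71.7% ± 1.04 of that sum in shTRIP6 and 39.6% ± 0.643 in shControl. JUNB made up 11.6% ± 0.280 in shTRIP6 and 35.9% ± 1.21 in shControl, and JUND 16.7% ± 0.920 in shTRIP6 and 24.6% ± 1.24 in shControl. JUNB stood at 0.162 of JUN in shTRIP6 and at 0.906 of JUN in shControl, and JUND at 0.233 of JUN in shTRIP6 and at 0.620 in shControl. The 3 shares separated the groups without overlap, each with p = 0.10 in the exact permutation test. These too sum to the whole within each library and are not independent results. The difference of the JUNB share was -24.3 percentage points, and it was -19.1 points with no length correction.

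**Figure D3:**
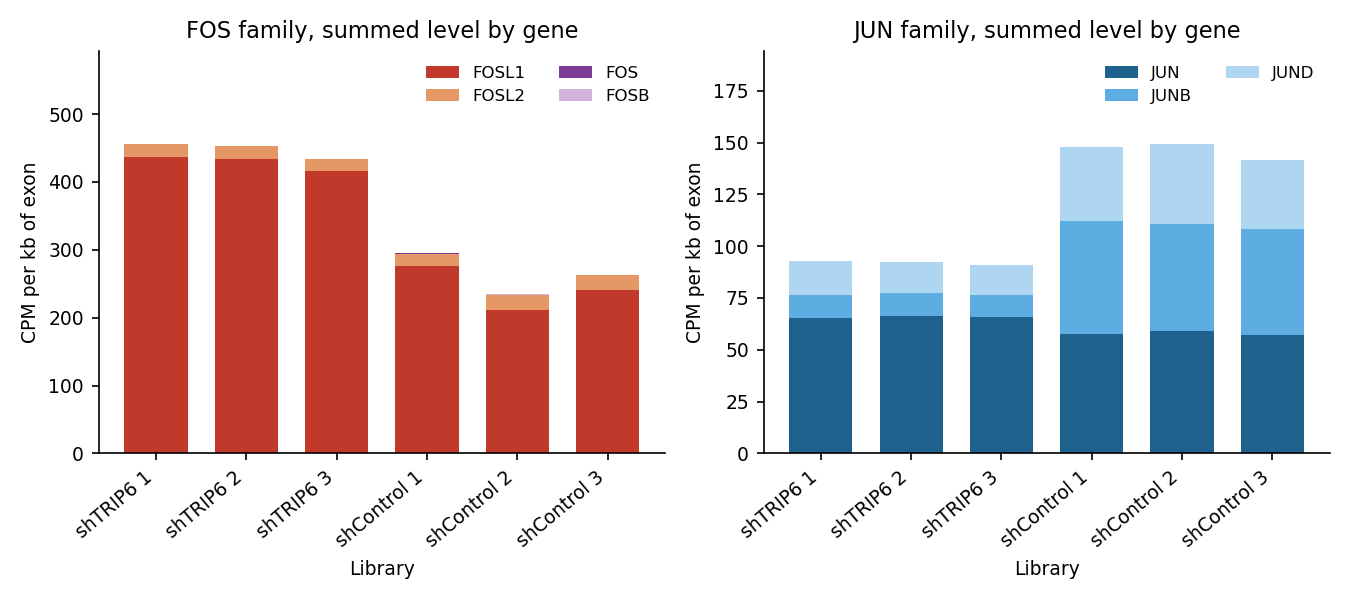
Summed level of the Fos genes (left) and of the Jun genes (right) in each library, in CPM per kb of exon, divided by gene. The Fos sum is 434 to 456 in shTRIP6 and 235 to 295 in shControl and is nearly all FOSL1, while the Jun sum is 90.8 to 92.7 in shTRIP6 and 142 to 149 in shControl.

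The balance between the families shifted with these changes. The log2 ratio of the Jun sum to the Fos sum was -2.30, -2.30 and -2.26 in shTRIP6 and -1.0004, -0.65 and -0.90 in shControl. The 2 groups did not overlap, and replicate 1 of shControl was the nearest of the controls. In linear terms the Jun sum was 0.205 of the Fos sum in shTRIP6 and 0.555 of it in shControl. Fos transcripts made up 83.0% ± 0.240 of both families together in shTRIP6 and 64.3% ± 2.88 in shControl. Within the Fos family, FOSL1 stood at 23.6 times FOSL2 in shTRIP6 and 11.7 times FOSL2 in shControl. Each of the 4 log2 ratios compared (Jun to Fos, FOSL1 to FOSL2, JUNB to JUN and JUND to JUN) gave p = 0.10 in the exact two-sided permutation test, and 0.10 after adjustment over the 4. The difference of the Jun-to-Fos ratio was -1.44 on the log2 scale, and it was -1.01 with no length correction. These are amounts of mRNA, and the proteins and the pairs they form were not measured.

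**Figure D4:**
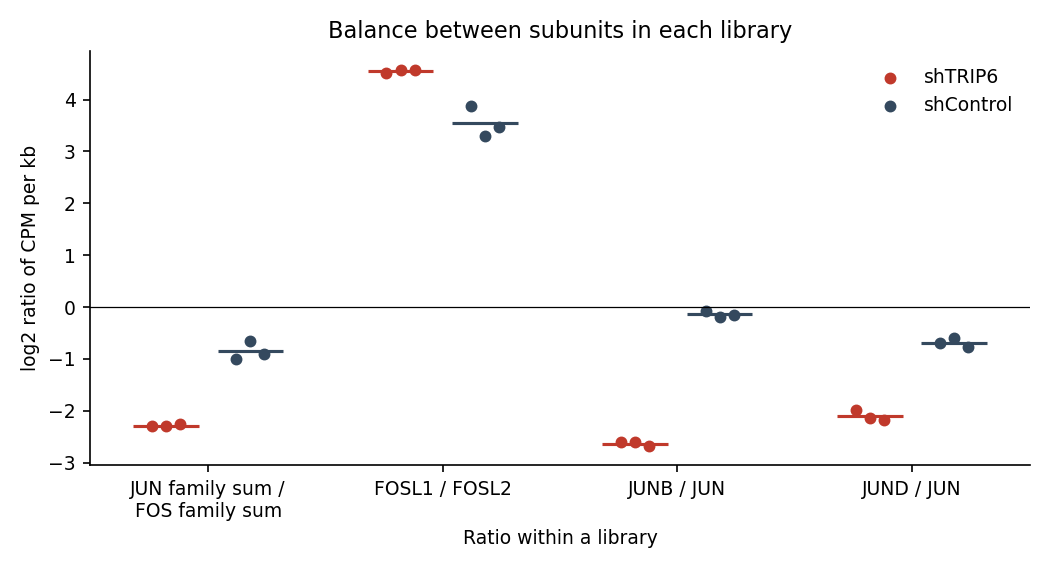
Log2 ratios of CPM per kb within each library, with 1 point per library, red for shTRIP6 and dark blue for shControl, and a bar at each group mean. The ratio of FOSL1 to FOSL2 is higher in shTRIP6, and the ratios of the Jun sum to the Fos sum, of JUNB to JUN and of JUND to JUN are lower.

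ATF3 and BATF3 lie near each other on chromosome 1 with 65640 bases between them, ATF3 on the plus strand from 212565334 to 212620777 and BATF3 on the minus strand from 212686418 to 212699985, and they moved in opposite directions. ATF3, a stress-induced factor that often represses its targets, had 3.89, 3.68 and 3.92 CPM in shTRIP6 and 5.34, 9.31 and 8.86 CPM in shControl. The shTRIP6 libraries agreed closely and lay below all controls, of which replicate 1 was far below the other 2. The fitted change was -1.03 ± 0.19 (edgeR adjusted p = 0.000135), and it was -1.25 without replicate 1 of shControl and -0.89 without replicate 2 of shControl. BATF3, which pairs with Jun proteins and is best known from mouse dendritic cells, had 14.2, 13.1 and 15.7 CPM in shTRIP6 and 5.75, 7.42 and 8.15 CPM in shControl. Its fitted change was 1.01 ± 0.14 (edgeR adjusted p = 3.22e-06), the largest rise of the 10 genes. Replicate 1 of shControl was the lowest control for this gene as well, and without it the change was 0.88.

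MAFF encodes a small Maf protein that lacks an activation domain and pairs with cap'n'collar factors such as NFE2L2 as well as with itself. It lies on chromosome 22 from 38200767 to 38216511. Its level was 49.4, 46.0 and 46.1 CPM in shTRIP6 and 29.5, 30.02 and 27.7 CPM in shControl, with no overlap. This was a change of 0.70 ± 0.07, a 1.62-fold rise (edgeR adjusted p = 7.32e-08). Its 4 nearest tested genes, PICK1, PLA2G6, TMEM184B and CSNK1E, lay between -0.76 and -0.12 on the log2 scale, on the other side of 0, and 3 of them were called. Among all 10 members, 6 changed by an amount outside the range of their 4 nearest tested genes. The other 4, JUN and FOSL2 among them, lay inside it.

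By mean level per kb of exon, the order in shTRIP6 was FOSL1 (429 CPM per kb), JUN (65.9), FOSL2 (18.2), JUND (15.3), JUNB (10.7), MAFF (8.40), BATF3 (5.29), ATF3 (0.948), FOS (0.462) and FOSB (0.156). In shControl it was FOSL1 (243 CPM per kb), JUN (57.8), JUNB (52.4), JUND (35.9), FOSL2 (20.7), MAFF (5.18), BATF3 (2.62), ATF3 (1.94), FOS (0.649) and FOSB (0.284). JUNB was the fifth in shTRIP6 and the third in shControl by this length. With the longest transcript as length it was the sixth in shTRIP6, where MAFF stood at 14.4 CPM per kb, and the third in shControl. With no length correction it was the sixth in shTRIP6 and the fourth in shControl. These other lengths were applied to the order after the data were seen. Genes next to each other in these orders had separate ranges over their 3 libraries, except BATF3 and ATF3 in shControl, where the lowest BATF3 value was 2.12 CPM per kb and the highest ATF3 value 2.30 CPM per kb.

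The promoter windows of the members were searched for 4 motifs. Of the 10 members, 8 (all but FOSL1 and BATF3) were matched in the RefSeq promoter table, with 10 windows of 300 bases, since ATF3 and MAFF have 2 starts each. TGANTCA, the classical AP-1 motif, matched in 1 of the 10 windows on either strand, against 7.71% of all 35116 windows in the table, and the CArG box bound by serum response factor in 0 of 10 against 1.29%. Bases more than 250 before a start were not searched, so the count of 0 does not show that these genes lack a CArG box. The cyclic AMP response element TGACGTCA matched in 2 of 10 against 1.85%. TGACNTCA, which includes it, matched in 4 of 10, and 7.72% of all windows hold it. That motif was chosen after these same windows were seen, so its count is a description only, and 6 of the 10 windows lack it. The matches outside the Jun genes are shown with the bases around them, at chr1:212565273-212565302 for ATF3, chr22:38201929-38201958 for MAFF and chr2:28392851-28392879 for FOSL2, with the match in capitals.
ATF3: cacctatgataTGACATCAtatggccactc
MAFF: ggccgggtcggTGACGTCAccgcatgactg
FOSL2: tgccattgtagTGACTCAtctcgggcaga

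JUN and ATF3 hold the same 8 letters, TGACATCA, and JUND and MAFF hold TGACGTCA. The members with a match differed in direction, since JUN and MAFF rose while ATF3 and JUND fell, and JUNB, the member with the largest fall, had no match in its window. A match is a description of the sequence and not evidence of binding.

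Genes around AP-1 were read from fixed lists, which were chosen with earlier results of these data known and were not tested as lists. Among the other bZIP partners, 7 of 27 tested members were called higher and 11 lower (25.9% and 40.7%, beside 29.0% and 31.2% of all tested genes; median log2 fold change -0.23). The C/EBP genes CEBPD and CEBPB, which can pair with AP-1 proteins, fell by 0.98 and by 0.72 on the log2 scale. BATF2, a relative of BATF3, stood at 5.48 ± 0.363 CPM in shTRIP6 libraries and 2.72 ± 0.316 CPM in shControl (a rise of 1.01 on the log2 scale), while NFE2L3 and ATF2 rose by 0.59 and 0.48. Among the kinases and serum response factors that act upstream, 7 of 26 were called higher and 9 lower (26.9% and 34.6%, median -0.08, the same with RPS6KA2 at its bound). The p38 genes MAPK13 and MAPK11 rose by 0.60 and 0.57, and SRF rose by 0.49, with 100.45 ± 2.52 CPM in shTRIP6 libraries and 71.7 ± 3.64 CPM in shControl. The p38 activator gene MAP2K6 stood at 2.80 ± 0.407 CPM in shTRIP6 and 20.7 ± 0.896 CPM in shControl, and MKL2, an SRF co-activator, fell by 1.42 on the log2 scale. RPS6KA2, a ribosomal S6 kinase gene, had no read in shTRIP6 and 2.92 ± 0.401 CPM in shControl, which is at least 91.8-fold lower if 3 counts summed over shTRIP6 are taken as its floor. Of the genes for modifiers and turnover of AP-1 proteins, 3 of 15 were called higher and 6 lower (20% and 40%, median -0.15). COPS5, the gene of the Jun-binding subunit of the COP9 signalosome, rose by 0.54, with 73.6 ± 3.86 CPM in shTRIP6 libraries and 50.5 ± 4.14 CPM in shControl. TRIB1, a pseudokinase that recruits the ubiquitin ligase COP1, had 4.95 ± 0.877 CPM in shTRIP6 libraries and 22.8 ± 1.24 CPM in shControl, while GSK3B and DET1 fell by 0.66 and by 0.47 on the log2 scale.

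The other immediate early genes were called higher in 7 of 27 and lower in 12 (25.9% and 44.4%, beside 29.0% and 31.2% of all tested genes), with a median of -0.15. Falls included IER5L at 8.57 ± 0.221 CPM in shTRIP6 and 77.7 ± 6.17 CPM in shControl, and KLF4 at 2.47 ± 0.391 CPM in shTRIP6 and 20.5 ± 1.17 CPM in shControl. CTGF and CYR61, which are YAP targets as well, rose by 1.03 and 0.90, and IER3 rose by 0.81. The stress genes linked to ATF3 were called higher in 7 of 15 and lower in 6 (46.7% and 40%, median 0.23). ASNS, asparagine synthetase, GADD45B and TRIB3 rose by 0.89, 0.56 and 0.40, while VLDLR, the mTORC1 inhibitor gene DDIT4 and GDF15 fell by 1.40, by 1.05 and by 0.43 on the log2 scale.

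Of the AP-1 target genes, 21 of 32 tested members were called higher and 7 lower. These are 65.6% and 21.9%, beside 29.0% and 31.2% of all tested genes, and the median log2 fold change was 0.40, beside -0.00 over all tested genes. IL11, a cytokine gene, stood at 3.94 ± 0.762 CPM in shTRIP6 and 0.281 ± 0.176 CPM in shControl, and the plasminogen activator genes PLAT and PLAU rose by 3.05 and 2.39 on the log2 scale. CCND1, the cyclin D1 gene, stood at 1028 ± 11.6 CPM in shTRIP6 and 664 ± 12.5 CPM in shControl, and was named after its values were seen. MMP9, the bundling protein gene FSCN1 and VEGFA fell by 2.26, by 1.53 and by 1.16. MMP1, the collagenase gene with a textbook AP-1 site, was also named after its values were seen and stood at 0.0949 ± 0.0835 CPM in shTRIP6 and 1.21 ± 0.732 CPM in shControl (log2 fold change -3.61, edgeR adjusted p = 0.000147). The list was put together with earlier results of these data known and holds genes with many other inputs, so its count describes these genes and was not tested as a list.

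**Figure D5:**
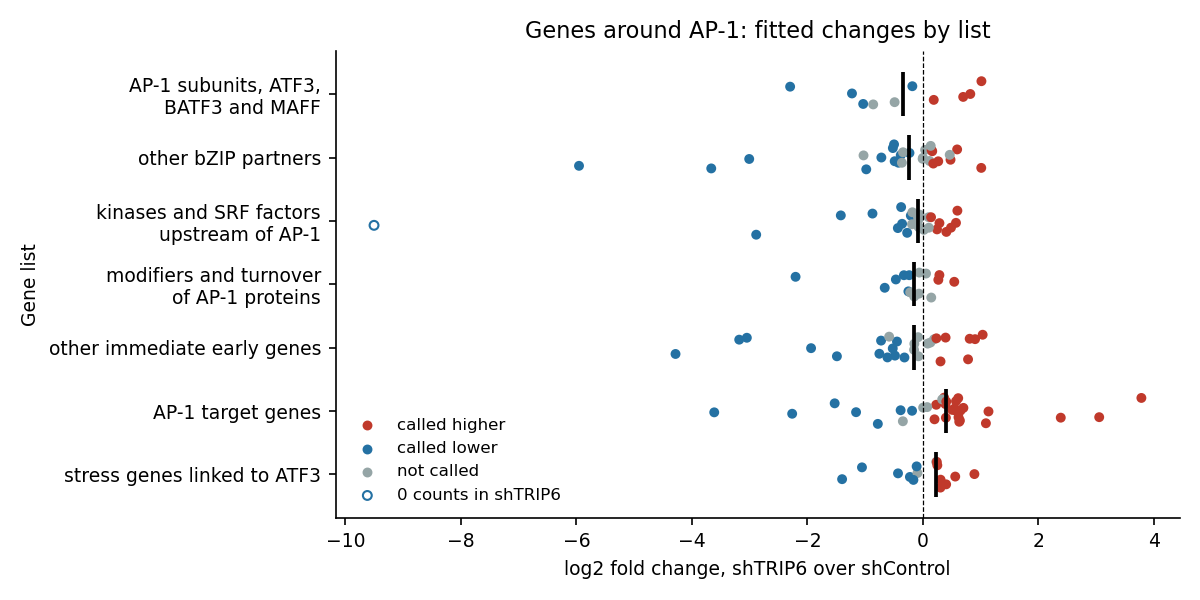
Fitted log2 fold change, shTRIP6 over shControl, of every tested gene of the members and the 6 lists around AP-1 (the marker lists are not drawn), with 1 point per gene, coloured by call, and a black bar at the median of the list. The dashed line is the median of all tested genes. The open circle is RPS6KA2, the gene drawn that had no read in shTRIP6, and its place on the axis depends on the prior count. The AP-1 target genes have the highest median, 0.40.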

How the data were processed

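The authors deposited raw counts of reads per gene symbol for each library. TopHat2, edgeR, limma and hg38 are named, with no role or version, per the submitters' processing notes; the counter, annotation and strand setting were not stated there, and reads of genes that overlap on opposite strands may not be told apart. The 10 genes and all gene lists were chosen with earlier results of these data known.

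Counts were fitted in R 4.3.3 with edgeR 4.0.16 (filterByExpr, TMM, quasi-likelihood test, group as the only term), adjusted over all 15473 tested genes and checked on simulated data. The simulated data held far fewer changed genes than were called here. They therefore do not check the scaling or the error rate at so large a share of changes. The SE was the log2 fold change divided by the square root of F, and the 95% intervals were t intervals from this SE, not adjusted over genes. CPM used TMM-scaled library sizes, and 1 count was worth 0.0314 to 0.0336 CPM. Levels per kb used the union of exons in GENCODE release 29 (GRCh38), in which 25770 of 27980 symbols were found. Shares and ratios were compared by exact permutation in scipy 1.17.1, where 3 against 3 cannot go below p = 0.10. Named genes were TRIP6, the 10 members, and from each list up to 3 rises and 3 falls, the largest among called genes that averaged 1 CPM or more and did not overlap between groups. Some genes that this rule names are not reported here. Alternatives were scaling by RLE, by the upper quartile or not at all, no filter, 1 CPM in 3 libraries, DESeq2 1.42.0, limma-voom in limma 3.58.1, a replicate block, leaving out each library and other length corrections. A floor speaks for counting error alone: with no molecular identifiers, PCR copies count as separate reads.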

Additional observations from a re-analysis of the deposited data

How the results depend on the processing

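Of 565 recomputed values 552 kept their direction and side of the threshold, stayed within 1.5 times the reported count or kept their place in the order, and 0 reversed. The exact p of the shares and ratios among them cannot fall under 0.05 with so few libraries, so only their direction could change. Members called higher numbered 4 in all 14 alternatives and members called lower 3 to 5, as the calls of FOSL2 and FOSB changed. Counts within the lists moved by up to 2 genes. Those beyond 1.5 times were of colon markers called lower, where the reported count was 0 and 1 was called with no filter (CDH1) and 1 without replicate 1 of shControl (KRT8). The place of JUNB moved with the length used. Leaving out each library gave TRIP6 changes of -2.10 to -1.98, FOSL1 changes of 0.73 to 0.92 and a Jun-to-Fos log2 ratio difference of -1.51 to -1.34. The shift of FOSL1's share, 4.08 percentage points, was 3.42 to 4.89 when a library was left out. The replicate numbers are shared between the groups, but same-numbered libraries did not deviate together (correlations of -0.02, -0.04 and -0.03). Deviations from a mean of 3 libraries cannot exclude a pairing, and the main fit used none. With the replicate number as a block FOSB was called (log2 fold change -0.98, adjusted p = 0.0483), members called lower numbered 5, and over all genes 4377 were called higher and 4702 lower. For shares and ratios the block gave p = 0.25 in the exact permutation test, the smallest that 3 pairs allow. FOS and FOSB rested on 10 to 74 reads per library, and the change of FOSB ran from -1.32 to -0.46 when a library was left out.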
